A study of Mus musculus with 8 samples.

Results

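Cytochrome P450 families 1 to 3 are the mainly drug- and toxin-metabolizing P450 enzymes, and their transcripts were measured in whole kidneys of Control mice and of mice with an induced deletion of Xpr1 in the nephron (cKO). All protein-coding genes named Cyp1, Cyp2 or Cyp3 plus a subfamily letter in GENCODE vM21 were taken, apart from Cyp2r1, a vitamin D 25-hydroxylase. The rule gave 60 of the 46517 genes listed: 3 of family 1, 48 of family 2 and 9 of family 3. It used names alone and no measured value.

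P450 enzymes are haem proteins that insert an oxygen atom into their substrates. The microsomal enzymes of these families sit in the endoplasmic reticulum and receive electrons from NADPH-P450 reductase (Por), partly by way of cytochrome b5. In the kidney they are found largely in the proximal tubule, where family 1 to 3 enzymes handle drugs, toxins, steroids and fatty acids, and where the Cyp2c and Cyp2j enzymes turn arachidonic acid into epoxyeicosatrienoic acids, lipid mediators of vascular tone and salt transport. Several mouse kidney P450 genes, Cyp2e1 and Cyp2j5 among them, are known to be higher in males under the action of androgens.

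Both groups carried homozygous floxed Xpr1 alleles (Xpr1lox/lox, exon 2), ate standard chow and drank doxycycline at 2 mg/ml for 2 weeks, starting at 8 weeks of age. The 4 cKO mice (KO16, KO18, KO19 and KO20) had in addition Pax8-rtTA, an activator that needs doxycycline and is driven by the Pax8 promoter, active along the renal tubule, and LC-1, a Cre transgene that the activator switches on. The 4 Control mice (C10, C11, C13 and C14) were littermates listed without these transgenes, so the presence of rtTA and Cre cannot be told apart from the loss of Xpr1. XPR1 is a retrovirus receptor that exports phosphate from cells. Each mouse gave 1 library from 500 ng of whole-kidney RNA, and neither sex, batch nor pairing is given in the labels.

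Between 20366113 and 26155030 reads per library were assigned to genes. Xpr1 itself lay between 80.2 and 126 CPM (counts scaled to library size) in Control libraries and between 5.74 and 26.5 CPM in cKO libraries, so each library followed its label (log2 fold change -2.65, SE 0.44, adjusted p = 0.00491). All CPM values here are scaled by the trimmed mean of M-values (TMM), and adjusted p-values come from edgeR's quasi-likelihood test with Benjamini-Hochberg correction over all 15382 genes tested. A gene is called lower or higher in cKO kidneys where the adjusted p is under 0.05. By that rule 6.61% of all genes tested were lower, 7.5% were higher and 14.1% were called in either direction. KO16 and KO20 leaned to short transcripts and C11 to long ones, with KO18 close to C11. Against the Control mean, the shortest sixth of genes deviated by a log2 of 1.04 in KO16 and 0.52 in KO20. It deviated by -0.39 in C11 and -0.26 in KO18, and the longest sixth by 0.46 in C11 and 0.43 in KO18. In the cKO libraries these values also hold any difference between the groups in short or long genes.

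Of the 60 members, 47 had at least 1 read and 23 had enough reads to be tested. All the changes that passed the test were decreases: 13 of the 23 tested members fell in cKO kidneys, 0 rose and 10 did not pass. This holds for the main fit, since some alternative fits also called Cyp1b1, Cyp2c65, Cyp2d22 or Cyp2j6 higher. The share of tested members called lower, 56.5%, stands beside the background of 6.61%, and their median log2 fold change of -1.45 stands beside 0.0066 over all genes tested. The filter on low counts bears on this share: 18 of the 23 reached the minimum of 0.393 CPM in every library of both groups, whereas Cyp2b10, Cyp2c69, Cyp2d12, Cyp2f2 and Cyp2j8 reached it in the Control group alone and none in the cKO group alone. Of the 18 that passed in both groups, 10 fell. The decreases were all in family 2, where 12 genes fell by at least 2-fold and 8 by at least 4-fold. By subfamily, both tested Cyp2a genes fell, as did both tested Cyp2c genes, 3 of 4 Cyp2d genes, 4 of 7 Cyp2j genes and the single Cyp2e and Cyp2f genes.

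**Figure D1:**
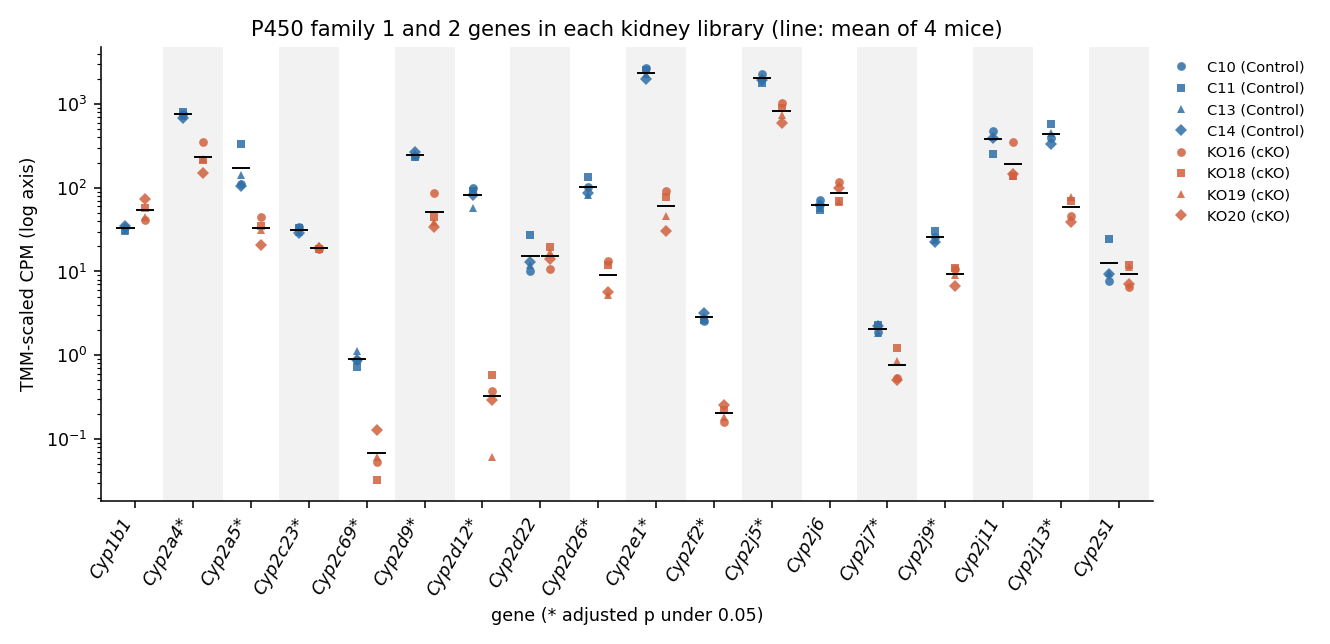
TMM-scaled CPM on a log axis of the members that passed the test or reached a mean of 5 CPM in a group, one point per library (blue Control, orange cKO) with the mean of the 4 mice as a line. Cyp2e1 lies between 1969 and 2689.8 CPM in Control libraries and between 30.2 and 91.7 CPM in cKO libraries, while the Cyp2d22 points of the groups overlap.

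The summed level of all 60 members was 7347, 7019.9, 6652 and 6047 CPM in C10, C11, C13 and C14, and 2232, 1680.3, 1481 and 1255 CPM in KO16, KO18, KO19 and KO20. The order of libraries is the same in all lists of 8 values that follow. The groups did not overlap, and the means were 6766 ± 557 and 1662 ± 418 CPM (SD, n = 4 mice each), a 4.07-fold difference. Without Cyp2e1 the sums were 4395 ± 240 and 1601 ± 392 CPM, a 2.75-fold difference. Cyp2e1 and Cyp2j5 together made up most of the Control sum. The share of Cyp2e1 went from 34.9% ± 2.03 of the summed CPM in Control kidneys to 3.55% ± 0.990 in cKO kidneys, and that of Cyp2j5 from 30.1% ± 3.002 to 49.4% ± 3.09. These sums are descriptions of this whole tissue. In whole-kidney RNA, fewer cells of a type and less RNA per cell cannot be told apart.

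**Figure D2:**
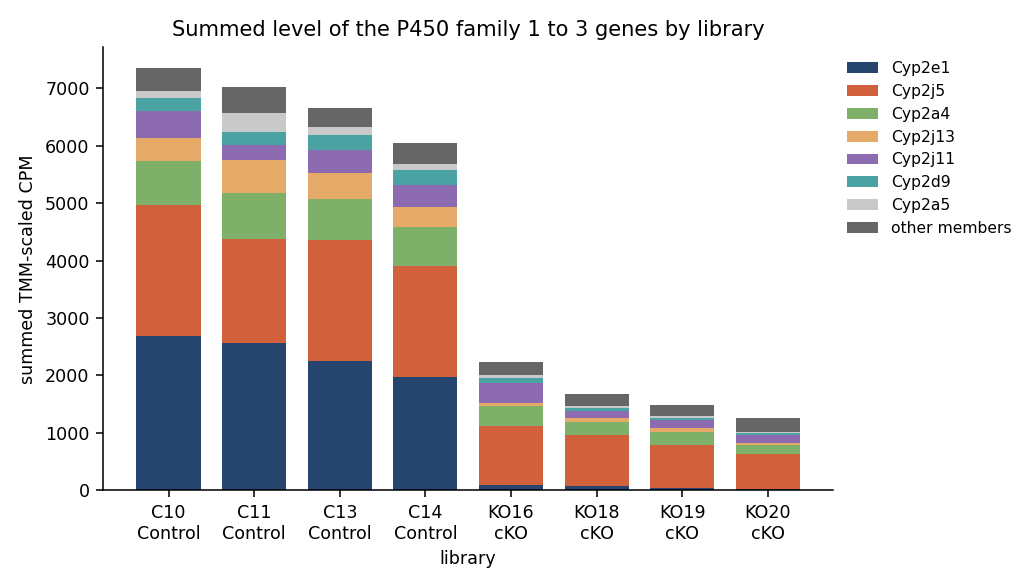
Summed TMM-scaled CPM of the 60 members in each library, stacked by gene, with the 7 most abundant members in colour and the others in dark grey. The Control bars reach 6047 to 7347 CPM and the cKO bars 1255 to 2232 CPM, and the Cyp2e1 block at the base nearly disappears in cKO libraries.

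Per kilobase of exon, the scale on which genes can be compared with each other, Cyp2e1 was the most abundant member in Control kidneys at 1099 ± 151 CPM per kb. Cyp2j5 followed at 865 ± 89.0 CPM per kb, then Cyp2a4 at 431 ± 30.9 and Cyp2j11 at 199 ± 47.6 CPM per kb. The next places lay within each other's spread: Cyp2d9 (93.2 ± 6.04 CPM per kb), Cyp2j13 (92.8 ± 21.4) and Cyp2a5 (83.7 ± 52.9) did not differ beyond it. That tie depends on the length used, because per kb of the longest transcript Cyp2d9 stood at 144.7 and Cyp2j13 at 99.5 CPM per kb. In cKO kidneys the order began with Cyp2j5 at 349 ± 78.7 CPM per kb, Cyp2a4 at 134 ± 49.3 and Cyp2j11 at 101 ± 55.7, the last pair within each other's spread. Cyp2e1 came next at 28.4 ± 13.1 CPM per kb, close to Cyp2j6 at 24.2 ± 6.56.

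Cyp2e1 oxidizes ethanol, acetone and small toxicants such as paracetamol and chloroform. Its level was 2689.8, 2571, 2253 and 1969 CPM in the Control libraries and 91.7, 77.3, 45.8 and 30.2 CPM in the cKO libraries. Every Control library lay far above the highest cKO library. The means of 2371 ± 325 and 61.2 ± 28.2 CPM differed 38.7-fold (log2 fold change -5.27, SE 0.41, adjusted p = 0.000215). The gene (ENSMUSG00000025479) lies on the plus strand of chromosome 7 from 140763739 to 140774987 in GRCm38, apart from the other Cyp2 genes of that chromosome.

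The sequence before the start of Cyp2e1 is shown because this gene lost the most CPM of the 60 members, and those of other members follow where they are described. RefSeq promoter windows (build GRCm38.p6, 250 bases before to 50 after a start) were matched by symbol for 52 of the 60 members, and the bases printed lie before both the RefSeq and the GENCODE start. Both strands of the full windows were searched for GCGTG (core of the xenobiotic response element), GTTAAT and AGGTCA (recognition core of many nuclear receptors), and a match is printed in capitals. The Cyp2e1 stretch, chr7:140763569-140763738 on the plus strand, held none of the 3 words.
Cyp2e1: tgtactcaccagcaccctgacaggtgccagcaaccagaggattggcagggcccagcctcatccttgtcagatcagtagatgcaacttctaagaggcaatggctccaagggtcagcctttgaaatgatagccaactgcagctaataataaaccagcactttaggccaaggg

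The 3 words had unlike shares. GCGTG occurred in 32.4% of all 32851 mouse windows and in 18.2% of the 55 member windows, which include alternative starts. GTTAAT occurred in 7.10% of all windows and in 10.9% of member windows, and AGGTCA in 16.3% and 34.5%. Of the 13 members that fell, 10 had a window. GTTAAT was found in 4 of those 10 (Cyp2a4, Cyp2a5, Cyp2d26 and Cyp2c69) and in 2 of the 42 other members with a window, Cyp2c40 and Cyp2c68. AGGTCA was found in 4 of the 10 (Cyp2j5, Cyp2a4, Cyp2a5 and Cyp2f2) and in 14 of the 42. GCGTG was found in 2 of the 10 (Cyp2j9 and Cyp2j13) and in 7 of the 42, with Cyp1a1 and Cyp1b1 among the 7. The 42 are all members with a window that were not called lower. At most 10 of them were tested, and the rest, such as Cyp2c40 with no read, had too few reads. These shares thus set called members largely against members with few or no reads. Cyp2a4 and Cyp2a5 are also near copies before their starts (97.6% identical). The matches are letter matches in a short window and say nothing of binding.

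Among the Cyp2d genes, 3 fell and Cyp2d22 did not pass. Cyp2d enzymes hydroxylate steroids and many basic drugs, and Cyp2d9 is known as the male-specific testosterone 16-alpha-hydroxylase of mouse liver. The summed Cyp2d level was 448 ± 31.1 CPM in Control kidneys and 76.0 ± 24.9 CPM in cKO kidneys.

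Cyp2d12 was nearly lost. It stood at 99.5, 92.5, 56.5 and 82.9 CPM in Control libraries and at 0.372, 0.576, 0.0606 and 0.295 CPM in cKO libraries. All 4 cKO libraries lay under 1 CPM, and the counts behind the groups were 7541 and 34 reads (log2 fold change -7.98, SE 0.57, adjusted p = 0.000215). The gene (ENSMUSG00000096852) spans 82555072 to 82560403 on the plus strand of chromosome 15. Of the 100-base words in its transcripts, 1.73% also occur in another gene, Cyp2d9, and it overlaps a miRNA gene by 60 bases.

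Cyp2d26 was the next most reduced of the cluster. It stood at 101, 135, 83.0 and 87.3 CPM in Control libraries and at 13.3, 12.0, 5.24 and 5.74 CPM in cKO libraries. The groups lay far apart, with means of 102 ± 23.4 and 9.07 ± 4.18 CPM (log2 fold change -3.49, SE 0.38, adjusted p = 0.000771). The gene (ENSMUSG00000022445) spans 82790101 to 82794294 on the minus strand of chromosome 15. Before its start, chr15:82794295-82794495 on the minus strand, the word GTTAAT occurs once, on the opposite strand. It reads ATTAAC in the printed strand, and the capitals mark it, beginning 41 bases before the GENCODE start of the gene.
Cyp2d26: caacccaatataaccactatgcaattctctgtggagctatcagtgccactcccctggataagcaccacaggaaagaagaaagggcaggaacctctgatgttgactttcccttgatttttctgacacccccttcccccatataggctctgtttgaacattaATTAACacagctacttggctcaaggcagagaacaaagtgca

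Cyp2d9 (ENSMUSG00000068086, chromosome 15, 82433437 to 82456845, plus strand) was the most abundant Cyp2d gene in both groups. It stood at 236, 232, 258 and 264 CPM in Control libraries and at 85.4, 45.1, 39.5 and 34.0 CPM in cKO libraries. KO16 was the highest cKO library but lay well under every Control library (248 ± 16.1 against 51.0 ± 23.4 CPM, log2 fold change -2.28, SE 0.31, adjusted p = 0.00192). Cyp2d9 shares 7.91% of its 100-base words with other genes. It also overlaps a miRNA gene by 60 bases and the pseudogene Gm46501 by 186 bases on its own strand, so its count carries more uncertainty than those of Cyp2d12 and Cyp2d26.

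Cyp2d22, the member often taken as the mouse counterpart of human CYP2D6, behaved differently. It stood at 10.1, 27.1, 11.9 and 12.9 CPM in Control libraries and at 10.6, 19.4, 17.1 and 13.9 CPM in cKO libraries. The groups overlapped, with means of 15.5 ± 7.81 and 15.3 ± 3.84 CPM (log2 fold change -0.021, SE 0.35, adjusted p = 0.979). C11 was far above the other Control libraries, and without C11 the log2 fold change was 0.39 (adjusted p = 0.392). Without C11, KO16 and KO20 together it was 0.61 with an adjusted p of 0.00418, a sign opposite to that of the Cyp2d genes that fell. That fit kept only KO18 and KO19 as cKO libraries. It called 4689 genes higher and 4486 lower of 15881 tested, so a call in it sets a gene little apart. Cyp2d22 (ENSMUSG00000061740) occupies the other end of the cluster, from 82370527 to 82380260 on the minus strand. The remaining Cyp2d genes, Cyp2d10, Cyp2d11, Cyp2d34 and Cyp2d40, held 6 to 28 reads over all 8 libraries and were not tested.

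**Figure D3:**
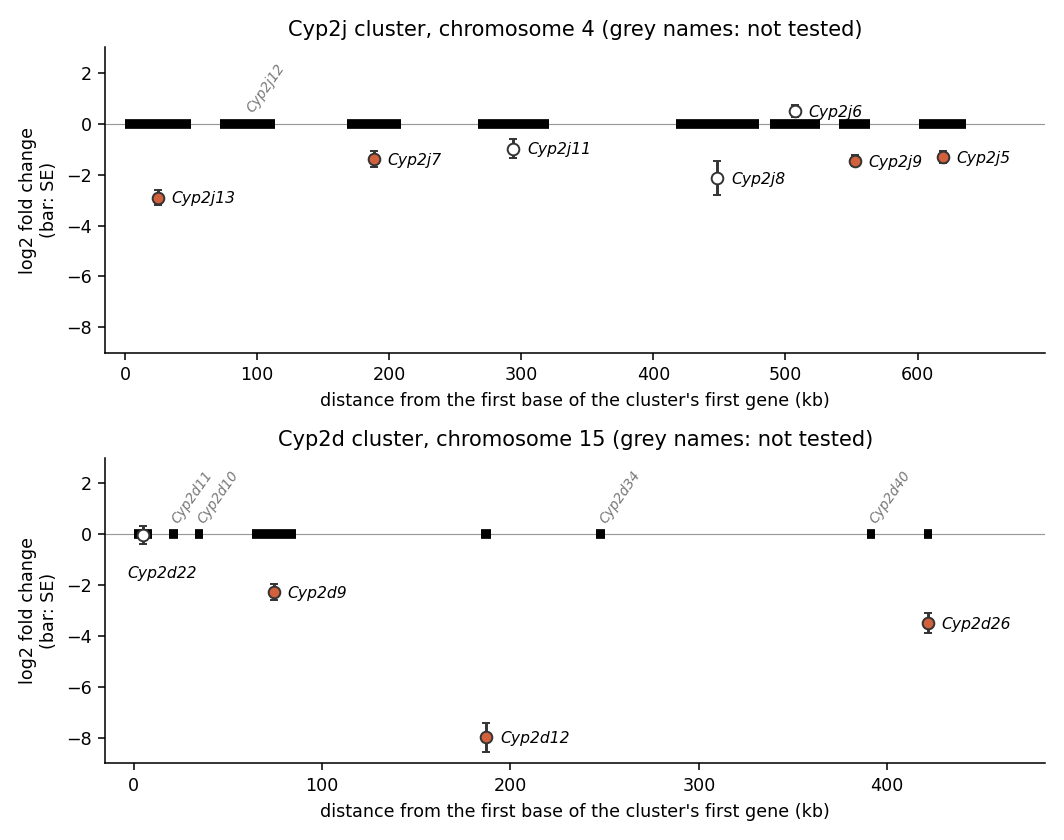
Log2 fold change with its SE for the Cyp2j and Cyp2d genes by their distance in kb from the first gene of each cluster, with black bars for the genes, filled points for an adjusted p under 0.05 and open points for members that did not pass. Within 424 kb of chromosome 15 the values run from -0.021 (Cyp2d22) to -7.98 (Cyp2d12), and within 637 kb of chromosome 4 from 0.51 (Cyp2j6) to -2.90 (Cyp2j13).

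The Cyp2j genes held the largest summed level of any subfamily in both groups, 2936 ± 251 CPM in Control kidneys and 1167 ± 285 CPM in cKO kidneys. They encode arachidonic acid epoxygenases and hydroxylases. All 8 lie within 637 kb of chromosome 4, 7 were tested, and 4 fell. Their transcripts share no 100-base words with other genes, and at most 2.32% of 50-base words (Cyp2j7). Most reads of such lengths can thus be assigned to a single member.

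Cyp2j5, the abundant renal epoxygenase of the proximal tubule, stood at 2281, 1798, 2101 and 1937 CPM in Control libraries and at 1029, 892, 749 and 599.9 CPM in cKO libraries. The groups did not overlap, but the decrease was smaller than that of Cyp2e1 (2029 ± 209 against 817 ± 185 CPM, log2 fold change -1.31, SE 0.24, adjusted p = 0.00706). The gene (ENSMUSG00000052520) spans 96628773 to 96664154 on the minus strand.

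Cyp2j13 (ENSMUSG00000028571, 96027534 to 96077546, minus strand) had the largest decrease of the cluster. It stood at 391, 570.0, 444 and 335 CPM in Control libraries and at 46.5, 70.2, 77.4 and 38.8 CPM in cKO libraries. All cKO libraries lay far under the lowest Control library (435 ± 100.3 against 58.2 ± 18.5 CPM, log2 fold change -2.90, SE 0.30, adjusted p = 0.000671).

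Cyp2j9, an epoxygenase also known from brain, stood at 25.7, 30.4, 23.9 and 22.7 CPM in Control libraries and at 10.6, 11.1, 9.12 and 6.75 CPM in cKO libraries. The groups were separate by a wide gap (25.7 ± 3.40 against 9.38 ± 1.94 CPM, log2 fold change -1.45, SE 0.23, adjusted p = 0.00365). Cyp2j7 was expressed at a low level, at 1.88, 2.29, 1.83 and 2.26 CPM in Control libraries and 0.531, 1.22, 0.848 and 0.506 CPM in cKO libraries. The groups did not overlap (log2 fold change -1.39, SE 0.33, adjusted p = 0.0231), but its call did not survive leaving out C10, C13, C14, KO19 or KO20, which gave adjusted p-values of 0.0507, 0.0589, 0.0717, 0.0521 and 0.0616.

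Cyp2j11, with all 8 libraries, did not pass. It stood at 473, 256, 407 and 392 CPM in Control libraries and at 354, 137, 137 and 147 CPM in cKO libraries. KO16 lay inside the Control range while the other 3 cKO libraries lay close together under it (382 ± 91.2 against 194 ± 107 CPM, log2 fold change -0.98, SE 0.37, adjusted p = 0.117). Without KO16 the log2 fold change was -1.44 and the adjusted p was 0.00483. With all 8 libraries and the length trend of each removed, it was -1.24 with an adjusted p of 0.00640. Cyp2j8, at 0.907 ± 0.336 CPM in Control and 0.191 ± 0.180 CPM in cKO kidneys, did not pass (log2 fold change -2.13, adjusted p = 0.0621), though it did without KO18 (-2.81, adjusted p = 0.0331), and Cyp2j12 held 5 reads in all.

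Cyp2j6 (ENSMUSG00000052914, 96516138 to 96553661, minus strand) was the one Cyp2j gene tested with a positive value. It stood at 70.7, 54.5, 57.8 and 62.6 CPM in Control libraries and at 116, 68.8, 66.9 and 98.0 CPM in cKO libraries. KO16 and KO20 were above every Control library, while KO18 lay between the Control libraries and so did KO19 (61.4 ± 7.004 against 87.3 ± 23.6 CPM, log2 fold change 0.51, SE 0.23, adjusted p = 0.199). Scaling by library totals alone, which moves the median of all genes to a log2 fold change of 0.34, was the only one of the 18 alternatives to call Cyp2j6 higher. The value rests on KO16 and KO20: without both it was 0.14 (adjusted p = 0.587), and without C11 too it was 0.053 (adjusted p = 0.707).

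The sequences before the starts of Cyp2j5 and Cyp2j6 are set side by side because these genes of the same cluster and strand differed in their calls: Cyp2j5 fell and Cyp2j6 did not pass. The Cyp2j5 stretch is chr4:96664155-96664369 and that of Cyp2j6 is chr4:96553662-96553901, both on the minus strand. The capitals mark the nuclear receptor word AGGTCA, which begins 162 bases before the GENCODE start of Cyp2j5, and the Cyp2j6 stretch held none of the 3 words. Aligned over the 250 bases before their starts, they were identical at 146 of 304 columns (48.0%), a share that lay between 46.4% and 53.2% for all pairs of the 6 genes shown except Cyp2a4 and Cyp2a5.
Cyp2j5: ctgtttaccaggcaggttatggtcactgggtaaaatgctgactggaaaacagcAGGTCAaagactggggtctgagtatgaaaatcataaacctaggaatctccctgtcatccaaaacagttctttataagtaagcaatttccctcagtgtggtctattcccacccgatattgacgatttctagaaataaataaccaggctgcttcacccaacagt
Cyp2j6: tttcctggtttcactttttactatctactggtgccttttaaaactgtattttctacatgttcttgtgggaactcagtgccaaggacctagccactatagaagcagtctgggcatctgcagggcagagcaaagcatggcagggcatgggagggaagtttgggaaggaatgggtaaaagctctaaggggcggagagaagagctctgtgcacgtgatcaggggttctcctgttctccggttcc

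Both tested Cyp2a genes fell. Cyp2a4 is known as a testosterone 15-alpha-hydroxylase and Cyp2a5 as a coumarin 7-hydroxylase that also oxidizes nicotine. Their summed level with the other Cyp2a genes was 923 ± 156 CPM in Control and 266 ± 94.9 CPM in cKO kidneys.

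Cyp2a4 (ENSMUSG00000074254, chromosome 7, 26307169 to 26315088, plus strand) stood at 768, 813, 727 and 688 CPM in Control libraries and at 354, 213, 218 and 151 CPM in cKO libraries. KO16 was the highest cKO library and KO20 the lowest, and all 4 lay under the Control range (749 ± 53.7 against 234 ± 85.7 CPM, log2 fold change -1.68, SE 0.28, adjusted p = 0.00473). Cyp2a5 (ENSMUSG00000005547, chromosome 7, 26835305 to 26843548, plus strand) stood at 112, 336, 142 and 104 CPM in Control libraries and at 44.2, 34.7, 31.3 and 20.7 CPM in cKO libraries. C11 was far above the other Control libraries, and the groups did not overlap with or without it (174 ± 109.7 against 32.7 ± 9.70 CPM, log2 fold change -2.41, SE 0.43, adjusted p = 0.00659). Without C11 the log2 fold change of Cyp2a5 was -1.87 (adjusted p = 0.00524).

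The genes share much sequence: 11.2% of the 100-base words of Cyp2a4 also occur in Cyp2a5, and 12.1% of those of Cyp2a5 occur in other genes, mostly Cyp2a4. With 50-base words the shares were 38.0% and 37.0%. Reads from those stretches align more than once and were not counted to genes, so each count holds the distinct parts alone. How much of each gene's level was missed is uncertain.

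Their promoters are shown because they are close copies: over the 250 bases before the starts, 245 of 251 aligned columns (97.6%) were identical. The Cyp2a4 stretch is chr7:26306942-26307168 and the Cyp2a5 stretch chr7:26835089-26835304, both on the plus strand. The capitals mark the word GTTAAT, which begins 137 bases before the GENCODE start of Cyp2a4 and 127 before that of Cyp2a5. Both windows also held AGGTCA on the reverse strand, outside the printed stretch.
Cyp2a4: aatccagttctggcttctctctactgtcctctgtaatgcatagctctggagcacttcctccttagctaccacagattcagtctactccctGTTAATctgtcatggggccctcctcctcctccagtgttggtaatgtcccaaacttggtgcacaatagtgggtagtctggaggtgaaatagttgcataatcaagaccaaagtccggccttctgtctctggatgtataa
Cyp2a5: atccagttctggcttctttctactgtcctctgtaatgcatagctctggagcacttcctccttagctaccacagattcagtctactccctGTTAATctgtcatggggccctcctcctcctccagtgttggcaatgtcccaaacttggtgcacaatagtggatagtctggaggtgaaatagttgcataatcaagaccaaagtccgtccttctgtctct

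The Cyp2c subfamily is the largest with 15 genes, yet Cyp2c23 was the single one above 2 CPM. Cyp2c23, well known as an arachidonic acid epoxygenase of the rodent kidney, stood at 33.7, 33.4, 29.3 and 29.2 CPM in Control libraries and at 18.4, 18.6, 20.3 and 19.1 CPM in cKO libraries. Both groups were tight and did not overlap (31.4 ± 2.47 against 19.1 ± 0.860 CPM, log2 fold change -0.72, SE 0.18, adjusted p = 0.0253). This was the smallest decrease among the 13. The call was lost without C10, C13, C14, KO18, KO19 or KO20, with adjusted p-values of 0.0791, 0.0746, 0.0718, 0.0581, 0.0588 and 0.0848, and the log2 fold change was -0.38 (adjusted p = 0.253) when libraries were scaled by their totals alone. Cyp2c23 lies alone on chromosome 19 (44005022 to 44029208, minus strand), outside the 1180 kb that hold the other 14 Cyp2c genes.

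Cyp2c69 was detected at a low level, at 0.868, 0.722, 1.13 and 0.887 CPM in Control libraries and 0.0531, 0.0320, 0.0606 and 0.127 CPM in cKO libraries. These values rest on 82 and 7 reads (log2 fold change -3.67, SE 0.42, adjusted p = 0.000933), and every cKO library lay under every Control library. Cyp2c69 shares 35.4% of its 100-base words with other genes, mostly Cyp2c40, so the gene of origin is uncertain. A pair of Cyp2c genes under the filter, chosen after their values were seen, gave values of opposite sign. Cyp2c68 had 20, 14, 15 and 9 reads in Control libraries and 0 reads in each cKO library. Set against a limit of 3 reads over the 4 cKO libraries, it was at least 22.6-fold lower there, and the fit without a filter gave an adjusted p of 0.00147. Cyp2c65 had 0, 2, 0 and 2 reads in Control libraries and 6, 21, 17 and 15 reads in cKO libraries, with a log2 fold change of 3.45 (adjusted p = 0.0104) in the fit without a filter. Both shared words with near copies, 19.8% for Cyp2c68 and 7.82% for Cyp2c65, and these limits cover counting error only.

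Cyp2f2 (chromosome 7, 27119909 to 27133660, plus strand), which activates naphthalene and is best known from club cells of the lung, was at 2.56, 2.61, 2.96 and 3.24 CPM in Control libraries and at 0.159, 0.224, 0.182 and 0.253 CPM in cKO libraries. The groups were far apart on counts of 259 and 22 reads (log2 fold change -3.75, SE 0.28, adjusted p = 0.000215). Its exons overlap those of the antisense gene Gm15883 by 274 bases. How strand was treated in counting is not given in the sources used here. Reads of such overlapping partners cannot be told apart.

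Family 1 and the remaining members of families 2 and 3 gave no call. Cyp1b1 (chromosome 17, 79701537 to 79715061, minus strand), which oxidizes polycyclic hydrocarbons and oestrogens and is found in mesenchymal cells, stood at 33.6, 31.4, 30.9 and 34.9 CPM in Control libraries and at 41.2, 57.0, 44.5 and 73.1 CPM in cKO libraries. Every cKO library lay above every Control library, but the adjusted p of 0.0645 missed the threshold (32.7 ± 1.89 against 54.0 ± 14.4 CPM, log2 fold change 0.72, SE 0.23). It passed in 7 of 18 alternatives, with an adjusted p of 0.0226 without KO16 and of 0.00370 without KO16, KO20 and C11. The last of these fits called 4689 genes higher and 4486 lower of 15881 tested. Beside it, the 3 fibroblast markers (Col1a1, Pdgfrb and Dcn) summed to 60.8 to 109.7 CPM in Control and 124 to 219 CPM in cKO libraries. Only Dcn among them passed (log2 fold change 1.45, adjusted p = 0.0178), with Col1a1 at 0.93 (adjusted p = 0.265) and Pdgfrb at 0.18 (adjusted p = 0.800). The 5 immune markers summed to 33.9 to 73.0 and 138 to 638 CPM. Lyz2 alone had a mean of 296 CPM in cKO kidneys, and Ptprc and Cd3e did not pass. The part of these markers in the Cyp1b1 values was not tested.

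Cyp1a1, the classical target of the aryl hydrocarbon receptor, ranged from 0.667 to 3.93 CPM over the 8 libraries, and its log2 fold change was 0.42 (adjusted p = 0.634) with KO16 and -0.077 (adjusted p = 0.941) without KO16. Cyp2s1, an epithelial P450, stood at 7.62, 24.1, 9.69 and 9.40 CPM in Control libraries and at 6.59, 11.8, 11.4 and 7.09 CPM in cKO libraries. C11 was far above the rest and the groups overlapped (log2 fold change -0.46, SE 0.40, adjusted p = 0.516). Without C11 the value was 0.049 (adjusted p = 0.940). Cyp2b10, the classical target of the constitutive androstane receptor in liver, did not pass at no more than 1.28 CPM in any library (log2 fold change -1.70, adjusted p = 0.0882), but without KO16 it was called lower (-2.24, adjusted p = 0.0272). Cyp2u1, a fatty acid hydroxylase, gave 0.10 (adjusted p = 0.835). Cyp3a13 was the single Cyp3a gene with enough reads, at 0.911 ± 0.276 CPM in Control and 1.304 ± 0.483 CPM in cKO kidneys (log2 fold change 0.52, adjusted p = 0.390). Without KO20 its log2 fold change was 0.29 (adjusted p = 0.675).

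**Figure D4:**
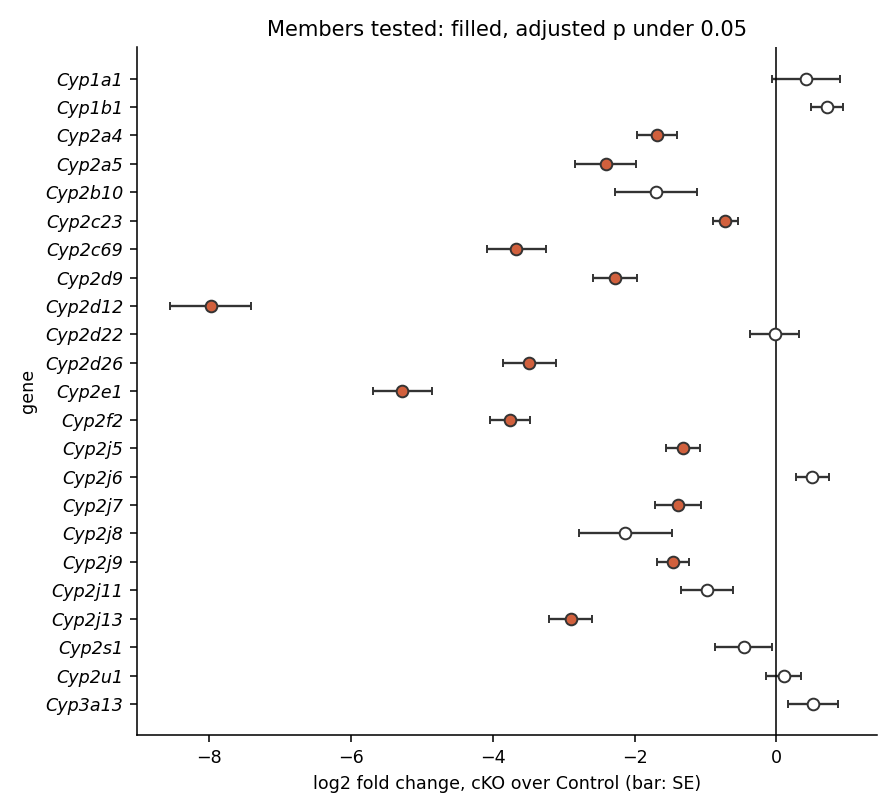
Log2 fold change of cKO over Control with its SE for each of the 23 members tested, filled where the adjusted p is under 0.05. The 13 filled points run from -0.72 (Cyp2c23) to -7.98 (Cyp2d12), and the 5 members with values above 0 are all open.

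Most of the other genes of these families, among them the major liver P450 genes, were at or near 0 in kidney. The 37 members not tested comprised 13 with no read in any library, 16 with 1 to 10 reads and 8 with more than 10 reads over all 8 libraries, and the highest value of any was 0.965 CPM. A count of 0 allows up to 3 reads in a group of 4 libraries. The 768 kb Cyp3a cluster of chromosome 5 held 8 members, none of them with enough reads for a test, and the Cyp3a11 count, for example, was 15 reads in Control and 3 in cKO libraries.

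By position, 3 clusters held both members that fell and tested members that did not pass. The 1356 kb stretch of chromosome 7 that holds the Cyp2a, Cyp2b, Cyp2f, Cyp2g, Cyp2s and Cyp2t genes had 13 members, 5 tested and 3 lower. The Cyp2d cluster had 3 lower of 4 tested, and the Cyp2j cluster 4 of 7. Among the 13 members that fell, KO20 was the lowest cKO library in 8 and KO16 the highest in 6, while C11 was the highest Control library in 6 and C14 the lowest in 6.

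Of the 39 P450 genes outside this set, those of families 4 and above with Cyp2r1, 23 were tested, 9 fell (39.1%) and 3 rose. Their median log2 fold change was -0.62. Over all genes tested, 6.61% were lower and 7.5% higher. Whether the families differ in the share called was not tested.

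Genes linked to P450 enzymes, from electron donors to receptors, receptor targets and other regulators, were counted from 6 lists of 41 genes. Of these, 39 were tested, 8 were lower and 2 higher, beside 6.61% lower and 7.5% higher over all genes tested. Among the 6 electron donors and membrane partners, only Cyb5b, the cytochrome b5 of the outer mitochondrial membrane, fell (603 ± 27.5 to 356 ± 74.0 CPM, log2 fold change -0.76, adjusted p = 0.0450). Por, the obligate electron donor of the microsomal P450 enzymes, was at 230.3 ± 141 CPM in Control and 93.8 ± 28.3 CPM in cKO kidneys and did not pass (log2 fold change -1.296, adjusted p = 0.0669). Neither did Cyb5a (-0.61, adjusted p = 0.505), Cyb5r3 (-0.42, adjusted p = 0.303), Pgrmc1 (-0.028, adjusted p = 0.959) or Pgrmc2 (-0.20, adjusted p = 0.546).

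Haem synthesis, which supplies the P450 prosthetic group, had 2 of 8 genes lower. Cpox, the coproporphyrinogen oxidase, fell from 90.5 ± 5.41 to 34.9 ± 12.2 CPM (log2 fold change -1.37, adjusted p = 0.0113), and Fech, the ferrochelatase that inserts iron, fell from 228 ± 32.4 to 130.0 ± 9.16 CPM (log2 fold change -0.81, adjusted p = 0.0219). The other 6, among them the rate-limiting Alas1 (-0.58, adjusted p = 0.233), Alad (-0.70, adjusted p = 0.188) and Uros (-0.66, adjusted p = 0.230), did not pass, and Urod (0.20) and Ppox (-0.024) lay closest to 0.

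Epoxide hydrolases act on epoxides made by P450 enzymes. Ephx1, the microsomal enzyme, rose from 46.8 ± 5.57 to 276 ± 162 CPM (log2 fold change 2.56, SE 0.38, adjusted p = 0.00275), whereas Ephx2, the soluble enzyme that hydrolyses epoxyeicosatrienoic acids, was at 654 ± 51.7 and 383 ± 157 CPM (log2 fold change -0.77, adjusted p = 0.118). Of 4 genes listed, 3 were tested and 1 was called.

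Among xenobiotic receptors and their partners, Ahr rose from 6.92 ± 0.952 to 14.5 ± 4.59 CPM (log2 fold change 1.07, adjusted p = 0.0357), and the 4 others tested did not pass (Arnt -0.52, Rxra -0.67, Rxrb -0.079 and Nr1i2 -0.27). Of 6 target genes of the Ahr receptor outside family 1, Tiparp (-1.19, adjusted p = 0.0217) and Ugt1a6a (-1.96, adjusted p = 0.00289) fell. The others did not pass and went both ways. Ahrr was at 1.16 (adjusted p = 0.120) and Aldh3a1 at 0.66 (adjusted p = 0.360). Nqo1 was at -0.19 (adjusted p = 0.838) and Ugt1a6b at -0.28 (adjusted p = 0.726). Every cKO library lay above every Control library for Ahrr. Of 11 other regulators, 3 nuclear receptors fell: Hnf4a (735 ± 149 to 251 ± 143 CPM, log2 fold change -1.55, adjusted p = 0.0363), Ppara (46.6 ± 20.7 to 11.8 ± 6.07 CPM, -1.97, adjusted p = 0.0190) and the bile acid receptor Nr1h4 (189 ± 28.3 to 79.8 ± 15.5 CPM, -1.24, adjusted p = 0.00607). The other 8 did not pass, among them Nr3c1 at -0.60 (adjusted p = 0.294) and Stat5b at -0.52 (adjusted p = 0.362).

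The count over the 6 lists was less stable than that of the members. The 10 calls became 5 without C10, without C13 or without C14, 6 without KO20 and 14 without KO16. Ephx1, Ugt1a6a and Nr1h4 were called in every alternative, and Cpox and Ppara whichever library was left out. Cyb5b, Fech, Ahr, Tiparp and Hnf4a each lost the call when certain single libraries were left out, with adjusted p-values of up to 0.132 for Cyb5b, 0.106 for Fech, 0.113 for Ahr, 0.0678 for Tiparp and 0.0927 for Hnf4a.

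Genes known to be male-biased in mouse kidney were lower as well. Of 8 listed, 7 fell, beside 6.61% lower over all genes tested. Among the 7 were Odc1 (1893 ± 523 to 212 ± 49.96 CPM, log2 fold change -3.16, adjusted p = 0.000519), Cyp4b1 (-3.47, adjusted p = 0.000215) and Slco1a1 (-3.54, adjusted p = 0.000427). The androgen-regulated Kap did not pass (-1.49, adjusted p = 0.0960). Of the 2 female-biased genes, Slc7a12 rose (2.93, adjusted p = 0.0203) and Cyp4a14 fell (-2.32, adjusted p = 0.0231). The first call was lost without C14 (adjusted p = 0.0680) and the second without C13, C14, KO19 or KO20 (adjusted p up to 0.0662). All 8 libraries held reads of Ddx3y, Eif2s3y, Kdm5d and Uty, and Xist ranged from 0 to 0.217 CPM. What part sex hormone action has in the P450 values was not tested.

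Markers of the proximal tubule, the known main site of P450 expression in kidney, were lower in cKO kidneys. Beside 6.61% lower over all genes tested, 3 of 3 S1 markers, 3 of 3 S2 markers and 3 of 4 S3 markers fell in the lists for its segments. Their summed levels ran from 2675 to 7619.6, 2966 to 3258 and 3504 to 3989 CPM in Control libraries and from 306 to 1084, 420.2 to 807 and 645 to 1204 CPM in cKO libraries. Slc5a1, the S3 glucose transporter, was the one that did not pass (log2 fold change -0.24, adjusted p = 0.586). Slc7a13, an S3 marker that fell, is also on the male-biased list, so these lists are not fully separate. None of the 3 thick ascending limb markers passed (3219.7 to 3939.5 against 3252 to 4935 CPM), nor the 2 of the distal convoluted tubule, the 3 of podocytes or the 4 of endothelium. In the collecting duct list Aqp2 rose and Aqp3 fell. Of 5 immune markers 3 rose, and of 3 fibroblast markers Dcn rose. The part of these shifts in the P450 decreases was not tested. Adrenal cortex markers summed to at most 0.992 CPM in any library, with Cyp11b2 at 0 in all 8, and of the hepatocyte markers Cps1 and Tat stayed at or under 0.281 CPM. Of the other 4, Alb fell from 9.16 ± 5.803 to 0.598 ± 0.322 CPM and Ttr from 299 ± 89.1 to 29.9 ± 22.7 CPM. Apoa1 (0.789 ± 0.191 and 1.51 ± 0.693 CPM) and Apoa2 (7.27 ± 2.42 and 4.52 ± 4.42 CPM) did not pass.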

How the data were processed

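The deposited values are whole numbers, taken as raw read counts per Ensembl gene, with 1 table per mouse as the file headers show. Per the submitters' processing notes, the tools were cutadapt 1.3, STAR 2.4.0g and HTSeq 0.6.1, on build GRCm38. Annotation release and strand setting: not given in the sources used here. Lines that name no gene (non-unique, ambiguous or without a feature) held 39.7% to 56.2% of each table and were left out. GENCODE vM21, of the same build, gave symbols, positions and exon lengths for 46005 of the 46517 identifiers.

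All 8 libraries were fitted in edgeR 4.0.16 under R 4.3.3 by the quasi-likelihood F test without covariates, after filterByExpr (count 10, total 15) and TMM scaling, with Benjamini-Hochberg adjustment over 15382 genes and a threshold of 0.05. P-values measure the spread between libraries of mice that the labels name separately. Levels per length are CPM divided by the kilobases of a gene's merged exons. Sequence shared between genes was measured as 100-base words of annotated transcripts. The fit was tested on simulated counts of 15382 genes that all had the same spread. It called 16 of 100 genes changed 2-fold and 85 of 100 changed 4-fold, with 0 in the wrong direction and 8 unchanged genes called. Most 2-fold changes were thus missed there, so a member that did not pass is not shown to be unchanged.

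Alternatives were DESeq2 1.42.0, limma-voom (limma 3.58.1), scaling by RLE, by upper quartiles or by library totals, no filter, a mean of at least 1 CPM, removal of each library's length trend, each library left out in turn, and KO16 and KO20 left out with or without C11. Members with an adjusted p under 0.05 or a mean of at least 5 CPM in a group are given with all 8 libraries; list genes are named if called or above a mean of 20 CPM, and all others are counted. A few list genes above that mean are not reported here. The members, lists and alternatives were chosen with earlier results of these data known.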

Additional observations from a re-analysis of the deposited data

Results flagged for a closer look

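In 5 of 46 groups of 4 libraries, taken over the 23 members tested, 1 library lay far from the other 3 by Dixon's criterion, which chance alone meets in about 1 of 20 groups. C11 was high for Cyp2a5 (336 CPM against 104 to 142 CPM in the other Control libraries), for Cyp2d22 (27.1 CPM against 10.1 to 12.9 CPM) and for Cyp2s1 (24.1 CPM against 7.62 to 9.69 CPM). KO16 was high for Cyp2j11 (354 CPM against 137 to 147 CPM in the other cKO libraries). KO20 was high for Cyp3a13 (2.02 CPM against 1.01 to 1.12 CPM). C11 and KO16 are also the libraries that lean furthest to long and to short transcripts, and what part this has in the values was not tested.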

How the results depend on the processing

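Of the 13 members called lower, 11 were called in each of the 18 alternatives that tested them and none turned in sign; Cyp2c23 lost the call in 9 and Cyp2j7 in 6, and Cyp2c69 was not tested under the filter of 1 CPM. The member count was 20 without KO16, KO20 and C11 (17 lower, and Cyp1b1, Cyp2d22 and Cyp2c65 higher), and 12 to 18 with 1 library left out. In these last fits 11 to 16 members were lower. Cyp2c65, under the filter of the main fit, was higher without C10, C11, C13, C14 or KO16, and Cyp1b1 without KO16. Both were also higher with DESeq2 and without KO16 and KO20. Over all genes the count of 2170 became 3267 with DESeq2, 9175 without KO16, KO20 and C11, and 1106 to 2697 with 1 library left out. The 10 calls over the 6 lists became 6 with library totals, 21 without KO16, KO20 and C11, and 5 to 14 with 1 library left out. The cause was not tested. Members that had not passed turned in sign as follows. Cyp2d22 was at 0.31 with library totals, 0.059 with limma-voom, 0.0011 with the filter of 1 CPM, 0.12 with upper-quartile factors, 0.23 without KO16 and KO20, 0.61 without KO16, KO20 and C11, and from -0.19 to 0.39 with 1 library left out, above 0 without C11 (0.39), KO16 (0.12) or KO20 (0.073). Cyp1a1 was at -0.077 (without KO16) to 0.72 with 1 library left out, -0.42 without KO16 and KO20, and -0.59 without C11 too. Cyp2s1 was at -0.65 to 0.049 (without C11) with 1 library left out and 0.34 without KO16, KO20 and C11, and Cyp2u1 at -0.017 (without KO18) to 0.25 with 1 library left out. Library totals moved the median of all genes to 0.34, raised the share of higher calls from 53.2% to 81.2% and called 11 members lower and 2 higher (Cyp1b1 and Cyp2j6); upper-quartile factors moved the median to 0.14 and the share to 63.9%. Of the 20 called genes that are Xpr1 or on the pathway and sex lists, 11 were called in every alternative and none turned in sign. With the longest transcript in place of merged exons, 5 of 18 levels per length moved by more than 1 SD (Cyp1b1, Cyp2c23, Cyp2d9, Cyp2e1 and Cyp2j9). The shares of shared sequence that were above 0 rose with 50-base words. So did some that were 0, such as Cyp2j7 (to 2.32%) and Cyp2j11 (to 1.34%). No paired analysis was possible because no animal number occurs in both groups.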
